A study of Mus musculus with 6 samples.

Results

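The genes followed here mark lipid-associated macrophages, and they were measured in the livers of mice with diet-induced steatohepatitis, with and without induced lipophagy. They were Trem2, Tyrobp, Gpnmb, Cd9, Cd63, Spp1, Lgals3, Itgax, Ly6c2 and Lyz2, chosen by symbol, and all 10 of them were among the 24346 rows of the expression table. Male mice, C57BL/6J by the study's methods and C57BL/6 by the labels, were fed CDAHFD, a high-fat diet with defined amino acids and without choline, from 8 weeks of age for 6 weeks, and were analysed after 2 further weeks on normal chow. By the study's methods, 1 intravenous dose of an adeno-associated virus of serotype 8 was given to mice grouped after the diet. The lipophagy group (3 livers) carried LDTS-eLIR, an adapter that joins the lipid droplet-targeting sequence (LDTS) of perilipin 1 to an engineered LC3-interacting region, and the control group (3 livers) carried LDTS-LIR mut, in which that region is mutated. Both groups therefore had the same droplet-targeting part, the same diet and the same virus. Expression was driven by the thyroxine-binding globulin promoter, which is active in hepatocytes, so the macrophages measured here were not the cells that the adapter was made for. No group without virus or without CDAHFD was analysed here.

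Lipid-associated macrophages arise in fatty tissue, where recruited monocytes take up lipid and switch on a shared set of genes for lipid sensing, phagocytosis and lysosomal breakdown. TREM2 is a surface receptor that binds lipids and lipoproteins such as apolipoprotein E, and it signals through TYROBP, an adapter with a short activating motif that recruits the kinase SYK. In steatohepatitis such cells gather around fatty hepatocytes and scar tissue beside Kupffer cells, the resident macrophages of the liver. Several of the genes are not specific to them. Spp1 is made by bile duct cells as well, Cd9, Cd63 and Lgals3 are active in many cell types, Ly6c2 marks inflammatory monocytes, Itgax is shared with dendritic cells and Lyz2 with most myeloid cells. In RNA of whole liver, fewer cells of a type and less RNA per cell cannot be told apart.

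The values were FPKM, fragments scaled to transcript length and to the total of the liver, and differences are given on the log2(FPKM + 1) scale, which understates the change of a gene with few fragments. Steps in the low values gave an estimated 23.5 to 33.8 M fragments for the control livers and 22.7 to 24.6 M for the lipophagy livers, and Spearman correlations between livers across genes were 0.980 to 0.991. Alb reached at least 35470 FPKM in each liver, as liver tissue would give. All 10 markers were above the limit of a mean of 0.5 FPKM. Of the 11493 genes tested with limma, 3 were called at an adjusted p below 0.05 (0.0261%), and these were Cish, Foxa1 and Phlda1.

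All 10 markers had a lower mean in the lipophagy livers than in the control livers, and none of the 10 was called (limma, Benjamini-Hochberg over all genes tested; lowest adjusted p = 0.160, for Ly6c2). The median log2 change of the 10 was -0.26, against 0.02 for all genes tested, of which 45.5% had a lower mean with lipophagy. That median was -0.42 without control liver 1 and -0.17 without control liver 3, where Trem2 moved from -0.24 to -0.41 and -0.10, and Tyrobp from -0.14 to -0.25 and -0.02. Separation of the groups was rare. In 1 of the 10, Ly6c2, each lipophagy liver lay below each control liver, and 10.8% of all genes tested did so. Ly6c2 was also the only marker with an unadjusted p below 0.05 in the lower direction (1 of 10, against 7.97% of all genes). The overlap came mostly from control liver 1, which was the lowest control liver for 9 of the 10 markers. Without that liver 8 of the 10 separated, all but Itgax and Lyz2, and still none was called. In that setting 16.4% of all genes separated downwards, but the place of this liver among the markers fixes their count, so nothing is read from the difference.

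**Figure D1:**
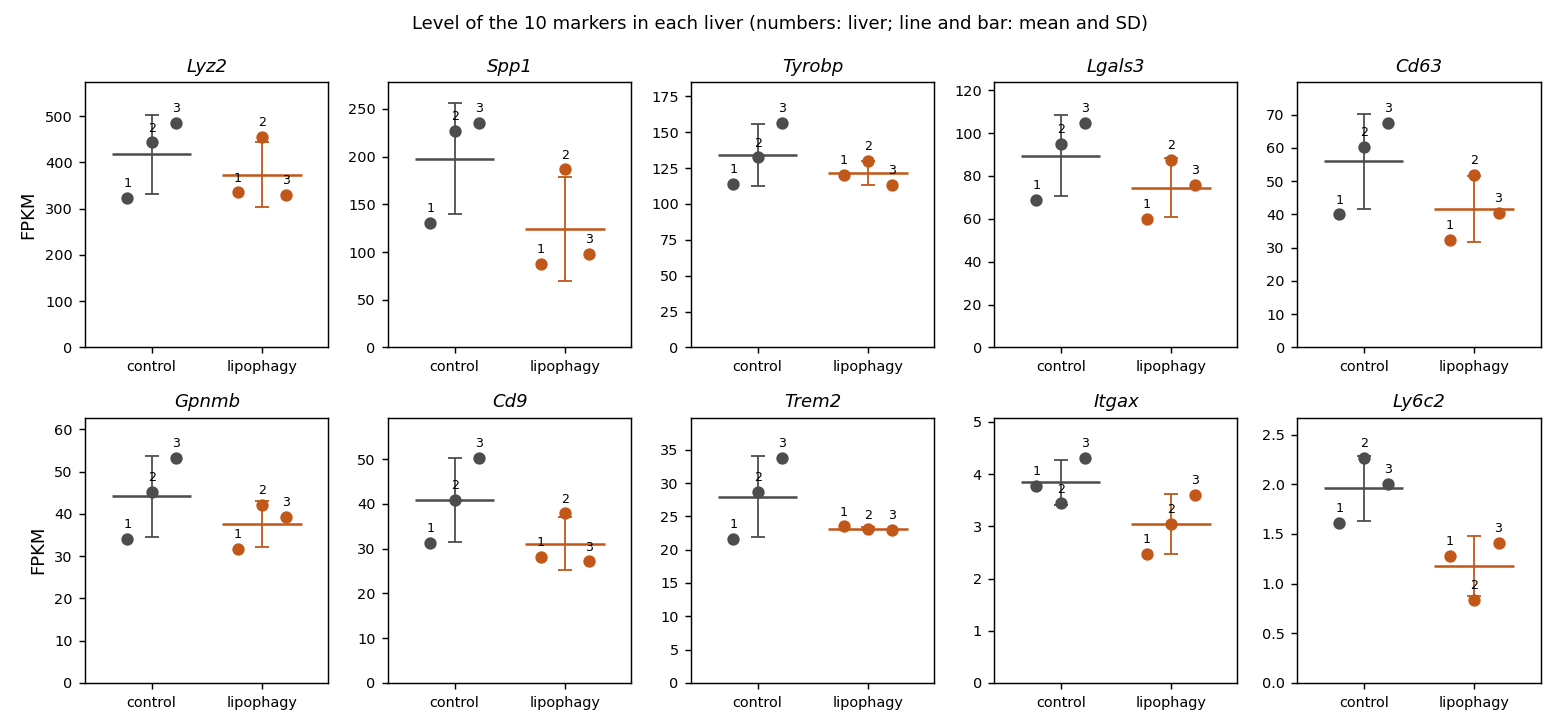
FPKM of each marker (vertical axes, from 0) in the 3 control and 3 lipophagy livers, ordered by the mean in control livers; points are livers with their number, lines are means and bars are SDs. The mean line of the lipophagy group is lower in all 10 panels, and only for Ly6c2 do the points of the groups not overlap.

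The levels spanned a wide range. In the control livers the order by mean FPKM was Lyz2 (417), Spp1 (198), Tyrobp (134), Lgals3 (89.5), Cd63 (56.0), Gpnmb (44.2), Cd9 (40.9), Trem2 (28.0), Itgax (3.84) and Ly6c2 (1.96). Neighbours in this order overlapped between livers for Spp1 with Tyrobp, Cd63 with Gpnmb, Gpnmb with Cd9 and Cd9 with Trem2, and the other neighbours did not overlap. By transcript length and estimated depth, these levels stood for an estimated 9145 to 19139 fragments of Lyz2 in a liver, 482 to 1051 of Trem2, 42.1 to 106 of Itgax and 11.0 to 39.3 of Ly6c2. The marker whose groups separated was thus the one with the fewest fragments.

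The receptor and its adapter came first. Trem2 (GRCm38, chr17:48346401-48354147, + strand) measured 21.6, 28.6 and 33.7 FPKM in control livers 1, 2 and 3, and 23.5, 23.0 and 23.0 FPKM in lipophagy livers 1, 2 and 3. The lipophagy livers were nearly alike (SD 0.285) while the controls spread widely (SD 6.11), and control liver 1 was the lowest of all 6. The mean was 17.2% lower with lipophagy, a log2 change of -0.24 ± 0.14 (SE) with a 95% interval of -0.57 to 0.09 (limma, adjusted p = 0.382). Tyrobp (chr7:30413760-30417585, + strand) gave 114, 132 and 157 FPKM in the control livers and 120, 130 and 113 FPKM in the lipophagy livers. Control livers 2 and 3 lay above each lipophagy liver, and the overlap came from control liver 1. The mean was 9.67% lower, with a log2 change of -0.14 ± 0.12 (SE; limma, adjusted p = 0.554), or -0.09 without lipophagy liver 3. The ratio of Trem2 to Tyrobp was 0.207 ± 0.015 (SD, n = 3) in control and 0.192 ± 0.013 (SD, n = 3) in lipophagy livers, a difference within the spread between livers (two-sided exact permutation test, p = 0.3, where 0.1 is the smallest p that 3 against 3 can give).

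The stretch before the start of Trem2 is shown beside that of Spp1, because these 2 genes, for a receptor and a secreted protein, are read together as markers of the same cell state. The sequences are the 250 bases before the RefSeq start (GRCm38.p6, + strand for both), and capitals mark GAGGAA or its reverse complement, the core that PU.1, a myeloid factor of the ETS family, binds.

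Trem2, chr17:48346151-48346400: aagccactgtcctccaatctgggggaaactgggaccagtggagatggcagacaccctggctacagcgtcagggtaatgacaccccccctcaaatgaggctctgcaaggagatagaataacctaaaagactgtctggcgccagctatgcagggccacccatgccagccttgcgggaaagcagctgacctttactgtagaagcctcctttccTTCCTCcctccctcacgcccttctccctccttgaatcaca

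Spp1, chr5:104434861-104435110: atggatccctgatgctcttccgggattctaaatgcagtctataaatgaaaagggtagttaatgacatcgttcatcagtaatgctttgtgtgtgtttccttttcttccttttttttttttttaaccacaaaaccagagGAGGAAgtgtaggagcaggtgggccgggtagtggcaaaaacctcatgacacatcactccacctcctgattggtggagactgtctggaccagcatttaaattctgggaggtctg

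The match lies 40 bases before the start of Trem2 and 113 bases before that of Spp1. Of the 10 markers, 9 had a promoter in the RefSeq set, and Tyrobp had none there. On either strand of the full 300-base windows, GAGGAA was found in 4 of the 9 (Trem2, Spp1, Cd63 and Ly6c2) and in 28.3% of all 32851 promoters. The AP-1 motif, TGACTCA or TGAGTCA, was found in 2 of the 9 (Gpnmb and Itgax) and in 5.20% of all. CACGTG, the E-box read by MITF and TFEB in lysosomal genes, was in 0 of the 9 and in 7.15% of all. A marker was counted if any of its promoters matched, whereas the shares are of single promoters, so the counts and shares are not like for like. These matches are letters in a window, and no binding was measured.

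Genes of the Trem2 pathway were given as a list of 16 ligands, adapters, signalling proteins, sheddases and related receptors, of which 13 were tested, and 0 were called. Of these 13, 11 had a lower mean with lipophagy (45.5% of all genes did), with a median log2 change of -0.15, and 4 separated downwards (10.8% of all genes). Apoe, the ligand, measured 20687, 20988 and 21542 FPKM in control and 27716, 23127 and 21520 FPKM in lipophagy livers. It had the highest change of the list, 0.19 ± 0.14 (SE; limma, adjusted p = 0.461), with overlapping groups, and its sign turned after quantile normalization (-0.03). Without lipophagy liver 1, its highest, the change was 0.082. Vav1, an exchange factor downstream of the receptor, had the lowest change, at -0.34 (limma, adjusted p = 0.134), and its livers separated. Syk, the kinase that TYROBP recruits, measured 2.22, 2.23 and 2.47 FPKM in control and 1.68, 1.71 and 1.97 FPKM in lipophagy livers, again without overlap (log2 change -0.25, limma, adjusted p = 0.186). Hcst, the other adapter of TREM2, was at 0.999 to 2.29 FPKM in all livers and overlapped (-0.09, limma, adjusted p = 0.794).

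Gpnmb, Cd9 and Cd63 encode membrane proteins of the cell surface and the lysosome. Gpnmb, a glycoprotein of phagocytes under lysosomal load (chr6:49036546-49070929, + strand), measured 34.2, 45.2 and 53.2 FPKM in control and 31.6, 42.0 and 39.3 FPKM in lipophagy livers. Only lipophagy liver 1 lay below all controls, and the log2 change was -0.21 ± 0.17 (SE; limma, adjusted p = 0.499), which was -0.38 without control liver 1, -0.07 without control liver 3 and -0.09 without lipophagy liver 1. Cd9, a tetraspanin of the cell surface (chr6:125460266-125494791, - strand), gave 31.4, 40.9 and 50.2 FPKM in control and 28.1, 37.9 and 27.2 FPKM in lipophagy livers. Lipophagy livers 1 and 3 were below all controls and liver 2 was not, with a log2 change of -0.38 ± 0.18 (SE; limma, adjusted p = 0.296), or -0.22 without control liver 3. Cd63, the tetraspanin of late endosomes and lysosomes (chr10:128900989-128912822, + strand), gave 40.0, 60.4 and 67.5 FPKM in control and 32.4, 52.0 and 40.5 FPKM in lipophagy livers. Its mean was 25.6% lower, with control liver 1 inside the lipophagy range and a log2 change of -0.41 ± 0.22 (SE; limma, adjusted p = 0.332), which was -0.63 without control liver 1, -0.26 without control liver 3 and -0.25 without lipophagy liver 1. Against Cd81, a tetraspanin found on nearly all cells, the ratio of Cd63 was 0.300 ± 0.074 in control and 0.232 ± 0.047 in lipophagy livers (SD, n = 3; exact permutation test, p = 0.2). The ratio of Cd9 to Cd81 was 0.220 ± 0.054 and 0.173 ± 0.028 (SD, n = 3; exact permutation test, p = 0.3). Cd81 itself (log2 change -0.06) and Cd82 (0.01) were close to 0, with signs that turned under other settings. Counting was from a stranded library, but whether strand was used is not given in the sources used here, and Cd9 overlaps genes annotated on the opposite strand, so its reads may include some of theirs.

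Spp1 and Lgals3 encode secreted proteins. Spp1, osteopontin, a ligand of CD44 and of integrins (chr5:104435118-104441050, + strand), measured 131, 227 and 236 FPKM in control and 87.4, 187 and 97.7 FPKM in lipophagy livers. Lipophagy livers 1 and 3 were below all controls, but lipophagy liver 2 lay above control liver 1. The mean was 37.4% lower, the lowest change of the 10 on the log2 scale, at -0.71 ± 0.31 (SE) with a 95% interval of -1.43 to 0.02 (limma, adjusted p = 0.265). Lgals3, galectin-3 (chr14:47367751-47386160, + strand), gave 68.6, 95.05 and 105 FPKM in control and 60.05, 87.5 and 75.8 FPKM in lipophagy livers. Its groups overlapped, with a log2 change of -0.26 ± 0.18 (SE; limma, adjusted p = 0.453), which was -0.43 without control liver 1, -0.13 without control liver 3 and -0.11 without lipophagy liver 1. Relative to Lgals1, galectin-1, the ratio was 0.650 ± 0.079 in control and 0.580 ± 0.094 in lipophagy livers (SD, n = 3; exact permutation test, p = 0.6). Lgals3bp, which binds galectin-3, separated downwards (-0.29, limma, adjusted p = 0.165), whereas Lgals1 overlapped (-0.09, limma, adjusted p = 0.686, or -0.20 without control liver 1 and -0.003 without control liver 2). Of the receptors of osteopontin, Cd44 separated downwards, with 3.56, 3.79 and 3.71 FPKM in control and 2.68, 3.06 and 3.41 FPKM in lipophagy livers (log2 change -0.21, limma, adjusted p = 0.247), and Itgav overlapped (-0.14, limma, adjusted p = 0.408, or -0.07 without control liver 1). Itgb1, a chain of several such integrins, separated upwards, with 37.9, 39.7 and 38.5 FPKM in control and 40.7, 42.7 and 40.8 FPKM in lipophagy livers, where 15.4% of all genes did so.

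Itgax, Ly6c2 and Lyz2 are genes of myeloid cells in general. Itgax, the CD11c integrin chain (chr7:128129547-128150657, + strand), measured 3.78, 3.44 and 4.31 FPKM in control and 2.47, 3.05 and 3.61 FPKM in lipophagy livers. Lipophagy liver 3 was above control liver 2, and the log2 change was -0.27 ± 0.12 (SE; limma, adjusted p = 0.273), or -0.16 without lipophagy liver 1. Its partner chain Itgb2, the CD18 integrin chain, separated downwards (-0.33, limma, adjusted p = 0.171), and the ratio of Itgax to Itgb2 was 0.391 ± 0.012 in control and 0.399 ± 0.049 in lipophagy livers (SD, n = 3; exact permutation test, p = 1). Ly6c2, a surface protein of inflammatory monocytes (chr15:75108158-75111970, - strand), gave 1.61, 2.26 and 2.003 FPKM in control and 1.28, 0.836 and 1.41 FPKM in lipophagy livers. The groups did not overlap, the mean was 40.0% lower, and the log2 change of -0.45 ± 0.13 (SE) had a 95% interval of -0.74 to -0.15 that did not reach 0, with an adjusted p of 0.160 (limma). That change depended on the pseudocount, being -0.71 with 0.1 in place of 1. Lyz2, lysozyme (chr10:117277331-117282321, - strand), had the highest level and nearly full overlap, with 323, 443 and 486 FPKM in control and 335, 455 and 330.3 FPKM in lipophagy livers. Its log2 change was -0.15 ± 0.18 (SE; limma, adjusted p = 0.655). It moved by over 1.5 times with any liver left out, from -0.33 without control liver 1 to -0.03 without control liver 3, with -0.10 without control liver 2 and -0.08, -0.30 and -0.07 without lipophagy livers 1, 2 and 3.

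Ly6c2 and Lyz2 have near copies next to them, Ly6c1 and Lyz1, and their coding exons are shown because reads from such stretches may be given to either copy. Both pairs are from GENCODE transcripts (GRCm38, - strand, written 5′ to 3′ along the gene), and capitals mark the bases that differ within a pair. Coding exon 2 of Lyz2 and Lyz1 differed at 6 of 165 bases (96.4% identity).

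Lyz2, chr10:117280641-117280805: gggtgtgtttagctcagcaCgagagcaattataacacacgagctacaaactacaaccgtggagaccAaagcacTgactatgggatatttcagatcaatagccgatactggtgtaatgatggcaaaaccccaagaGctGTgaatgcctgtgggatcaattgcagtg

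Lyz1, chr10:117291029-117291193: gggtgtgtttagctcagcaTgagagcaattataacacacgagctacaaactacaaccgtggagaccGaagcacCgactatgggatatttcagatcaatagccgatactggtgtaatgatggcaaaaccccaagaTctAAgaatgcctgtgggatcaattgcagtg

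Exon 3 of Ly6c2 held the same 117 bases as exon 3 of Ly6c1 (chr15:75047353-75047469), with 0 differences.

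Ly6c2, chr15:75110511-75110627: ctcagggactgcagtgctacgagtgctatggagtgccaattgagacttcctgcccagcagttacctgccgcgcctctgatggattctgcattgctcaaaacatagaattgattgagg

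Over all annotated transcripts, 5.81% of the 100-base stretches of Ly6c2 were found unchanged in Ly6c1, and 1.97% of those of Lyz2 in Lyz1. Shared stretches were also found for Spp1 with the overlapping model Gm42793 (5.85%), Cd63 with the pseudogene Cd63-ps (4.81%) and Itgax with Itgad (3.05%), and none for the other 5 markers. The levels of the copies were low. Ly6c1 measured 0.553, 0.371 and 0.612 FPKM in control and 0.436, 0.586 and 0.589 FPKM in lipophagy livers (log2 change 0.03, limma, adjusted p = 0.895), and did not follow Ly6c2. Lyz1 was at 14.3 to 23.6 FPKM, and the ratio of Lyz2 to Lyz1 was 20.7 ± 1.8 in control and 21.6 ± 2.1 in lipophagy livers (SD, n = 3; exact permutation test, p = 0.7). How the deposited values split reads between copies is not given in the sources used here, so the level of Ly6c2 is uncertain.

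**Figure D2:**
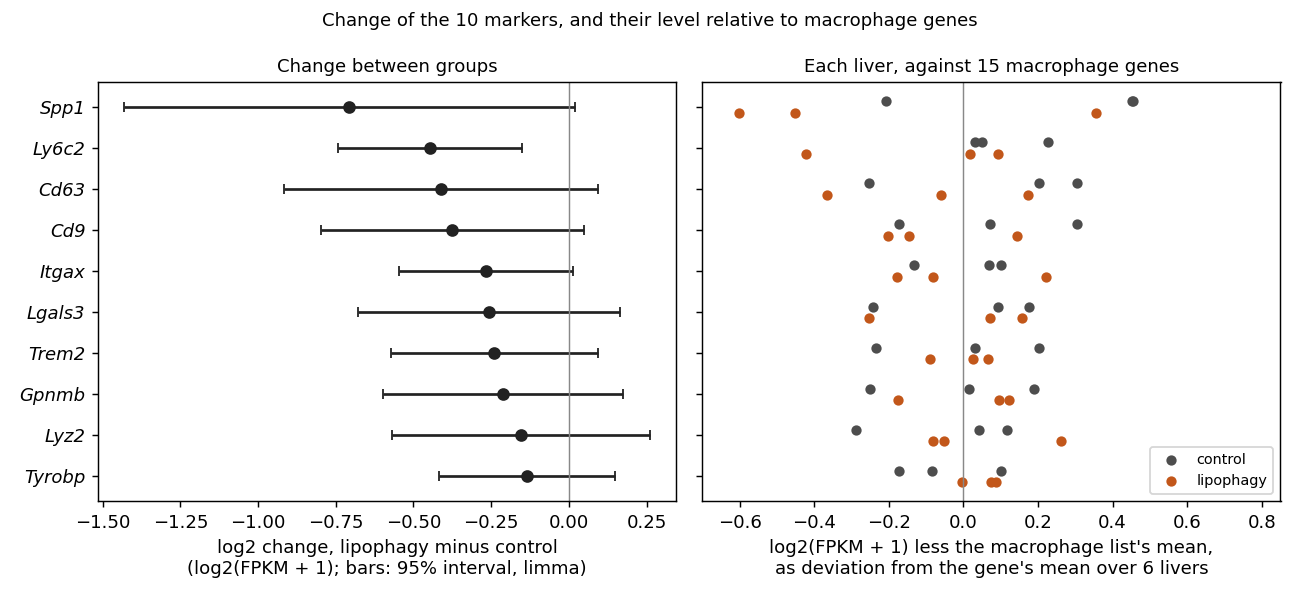
Left, log2 change of each marker (lipophagy minus control, log2(FPKM + 1)) with the 95% interval from limma; right, the level in each liver relative to the mean of 15 macrophage genes, as the deviation from the marker's mean over the 6 livers. All 10 points on the left are below 0 and only the interval of Ly6c2 does not reach 0, and on the right the groups overlap for all 10 markers.

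The markers were then set against 15 genes of macrophages in general, to ask whether they differed from macrophage RNA as a whole. Of these 15 genes, 14 had a lower mean with lipophagy, 7 separated downwards (10.8% of all genes did), 9 had an unadjusted p below 0.05 in that direction (7.97% of all genes) and 0 were called, with a median log2 change of -0.26, near that of the markers. Csf1r, the receptor for the growth factor of macrophages, measured 15.6, 16.4 and 16.2 FPKM in control and 12.7, 12.4 and 13.9 FPKM in lipophagy livers, without overlap (-0.28, limma, adjusted p = 0.151). Lst1 had the lowest change (-0.39, limma, adjusted p = 0.207), and Adgre1, a surface receptor of mouse macrophages, the highest (0.05, limma, adjusted p = 0.822), with a sign that turned when control liver 3 or lipophagy liver 1 was left out. Averaged over these genes, the level was 4.65 ± 0.094 in control and 4.41 ± 0.071 in lipophagy livers on the log2(FPKM + 1) scale (SD, n = 3; exact permutation test, p = 0.1, the smallest possible).

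Relative to this macrophage mean in the same liver, no marker separated the groups. Trem2 was 0.185 ± 0.220 log2 units above the macrophage mean in control and 0.186 ± 0.080 in lipophagy livers (SD, n = 3), a difference of 0.00 (exact permutation test, p = 1). For Tyrobp, Gpnmb, Lyz2, Lgals3 and Itgax the difference lay between -0.03 and 0.11, and for Cd9, Cd63 and Ly6c2 between -0.21 and -0.13. Spp1 had the lowest, at -0.47, with 2.497, 3.16 and 3.16 log2 units above the macrophage mean in control and 2.10, 3.06 and 2.25 in lipophagy livers (exact permutation test, p = 0.2). The p of the other 9 ranged from 0.4 to 1 (exact permutation test), and the value of Ly6c2 depended on the pseudocount, being -0.45 with 0.1 in place of 1.

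Across livers the markers did not all move together. Between pairs of markers, Pearson's r over the 6 livers ranged from 0.20 for Ly6c2 with Lyz2 to 0.99 for Cd63 with Lgals3, and these points share the group difference and the depth of each liver. Cd63, Lgals3, Gpnmb, Cd9, Spp1 and Tyrobp shared a pattern in which control livers 2 and 3 were highest, lipophagy liver 2 came next and control liver 1 and lipophagy livers 1 and 3 followed. Ly6c2 was lowest in lipophagy liver 2 instead, where 7 of the 10 markers were the highest of their group. By r with Trem2, the 5 nearest of all genes tested were Prmt2, C1qtnf2, Irf7, Dkk3 and Fabp4 (r = 0.98 to 0.99 over 6 livers), each with 1 control liver near the lipophagy livers in the same way as Trem2.

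**Figure D3:**
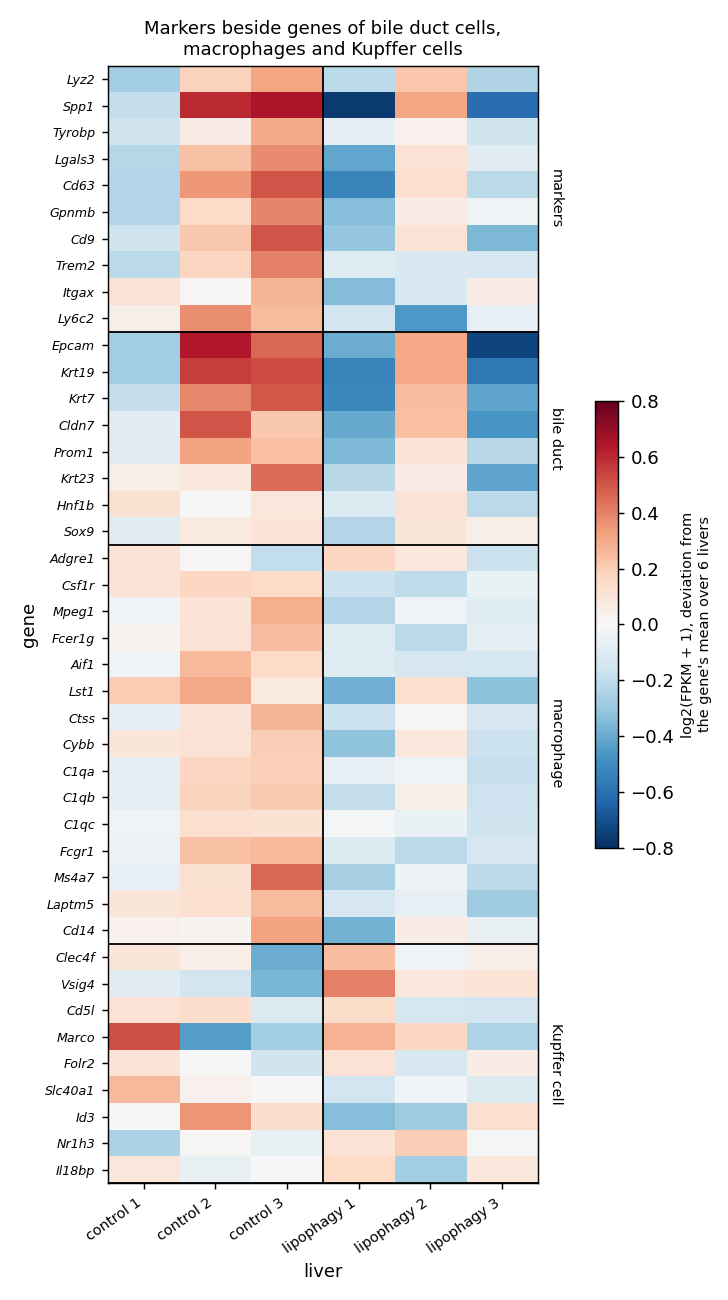
Deviation of log2(FPKM + 1) from each gene's mean over the 6 livers (colour, limited at 0.8), for the 10 markers and the tested genes of bile duct cells, macrophages and Kupffer cells; columns are livers, with a line between control and lipophagy. Spp1 has the same sign as Epcam and Krt19 in each of the 6 livers, with lipophagy liver 2 high and control liver 1 low, while Csf1r and Ly6c2 are lower in each of the lipophagy livers.

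Genes of bile duct cells had that same pattern. Krt19, a keratin of these cells, measured 1.91, 4.16 and 4.05 FPKM in control and 1.43, 3.36 and 1.37 FPKM in lipophagy livers. Epcam, their adhesion molecule, measured 2.17, 4.98 and 4.29 FPKM in control and 1.92, 3.75 and 1.31 FPKM in lipophagy livers. All 8 tested genes of the list had a lower mean with lipophagy (median -0.41), 0 separated and 0 were called. Their change ran from -0.55 for Epcam (limma, adjusted p = 0.342) to -0.06 for Sox9 (limma, adjusted p = 0.784), and Krt7 stood at -0.46 (limma, adjusted p = 0.315).

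Spp1 kept a nearly fixed proportion to them. Over the 6 livers Spp1 ranged from 87.4 to 236 FPKM, while its ratio to Krt19 ranged from 54.6 to 71.6. That ratio was 60.4 ± 7.1 in control and 62.8 ± 8.1 in lipophagy livers (SD, n = 3; exact permutation test, p = 0.6), and the ratio of Spp1 to Epcam was 53.6 ± 7.4 and 56.6 ± 15.7 (SD, n = 3; exact permutation test, p = 0.9). Against the mean of the bile duct list, Spp1 had r = 0.99 (exact permutation test, p = 0.00417) and rho = 0.94 (exact permutation test, p = 0.0167). Adjusted over the 40 relations computed, of 10 markers with 4 references, these p-values became 0.0833 and 0.111 and did not pass 0.05. The r was 0.997 without lipophagy livers 1 and 3, the farthest from the median of the list, and 0.989 after the group means were taken off. With the macrophage list, Spp1 had r = 0.91 (exact permutation test over 6 livers, adjusted p = 0.119), which was 0.76 without control livers 2 and 3, the farthest for that list, and 0.953 after the group means were taken off. Cd9 (r = 0.95), Cd63 (0.93) and Lyz2 (0.92) were also near the bile duct list (exact permutation test over 6 livers, adjusted p of 0.0926, 0.119 and 0.136). With the macrophage list these 3 had r = 0.92, 0.88 and 0.74 (exact permutation test over 6 livers, adjusted p of 0.119, 0.136 and 0.220). Without the 2 livers farthest from each list's median, their r was 0.891, 0.973 and 0.943 with the bile duct list and 0.695, 0.545 and 0.272 with the macrophage list. After the group means were taken off, their r was 0.989, 0.959 and 0.994 with the macrophage list and 0.920, 0.899 and 0.968 with the bile duct list. The share of Spp1 RNA that came from bile duct cells was not tested, and cell type and RNA amount cannot be told apart here.

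Ly6c2 stood at the other end. Its r with the bile duct list was 0.39 (exact permutation test over 6 livers, adjusted p = 0.481). With Csf1r its r was 0.93 and its rho 1 (exact permutation test over 6 livers, adjusted p = 0.0556 for both). The r with Csf1r was 0.89 without the 2 farthest livers and 0.81 after the group means were taken off. With the mean of all 15 macrophage genes it was 0.70 (exact permutation test over 6 livers, adjusted p = 0.189), and it was -0.01 without the 2 farthest livers and -0.07 after the group means were taken off. Itgax had 0.45 with the bile duct list and 0.78 with Csf1r, while Lyz2 had 0.26 with Csf1r, and none of these 3 relations passed (exact permutation test over 6 livers, adjusted p of 0.449, 0.136 and 0.608).

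**Figure D4:**
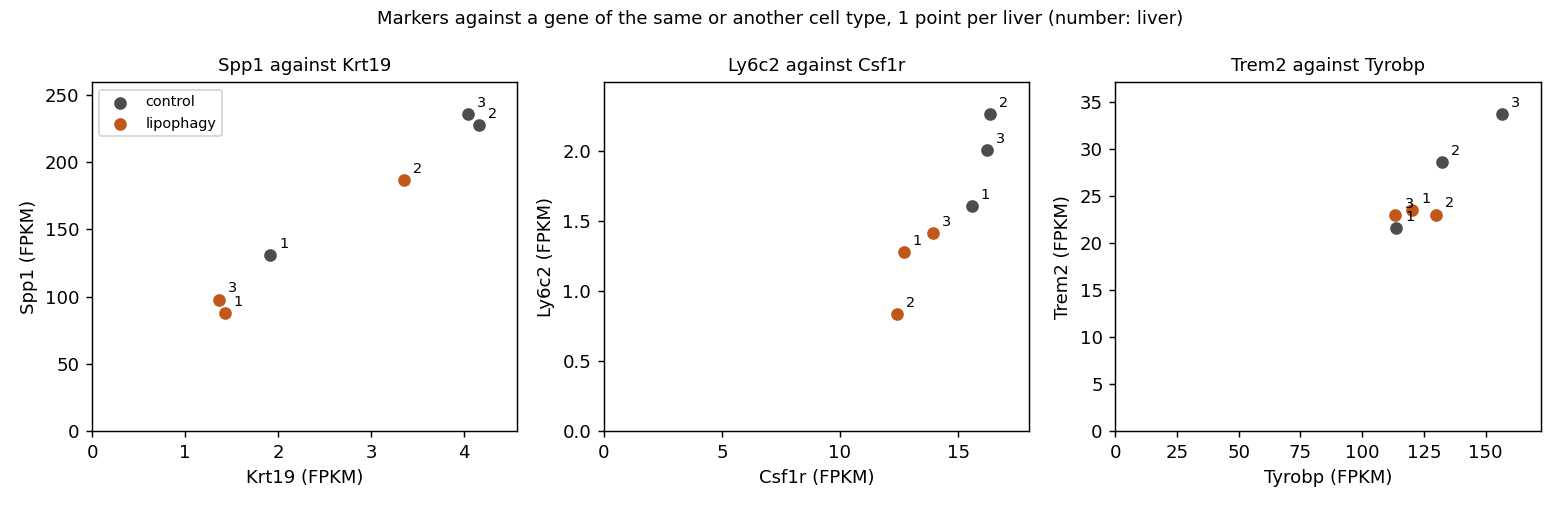
FPKM of Spp1 against Krt19, Ly6c2 against Csf1r and Trem2 against Tyrobp (axes from 0), 1 point per liver with its number, pairs of which the first and second were chosen after their values were seen. Spp1 rises with Krt19 along a line through both groups, whereas Ly6c2 and Csf1r are both lower in the 3 lipophagy livers than in the 3 control livers.

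Monocyte genes, which recruited cells carry, were lower in mean as Ly6c2 was. All 8 that were tested had a lower mean, 5 separated downwards, where 10.8% of all genes did, and 0 were called (median -0.29). Ccr2, the receptor that brings monocytes into the liver, measured 2.16, 2.01 and 1.85 FPKM in control and 1.118, 1.78 and 1.41 FPKM in lipophagy livers (-0.31, limma, adjusted p = 0.204). Ms4a4c had the lowest change (-0.53, limma, adjusted p = 0.124) and Ifitm3, which many cells express, the highest (-0.05, limma, adjusted p = 0.817). Genes of resident Kupffer cells lay on both sides of 0. Of the 9 tested, 4 were lower and 5 higher in mean, with a median of 0.03 that was 0.00 after quantile normalization. Clec4f, which marks these cells, measured 30.0, 29.0 and 21.0 FPKM in control and 33.3, 27.3 and 28.8 FPKM in lipophagy livers (0.17, limma, adjusted p = 0.530), and the change was 0.257 without control liver 1, 0.009 without control liver 3 and 0.087 without lipophagy liver 1. Vsig4, their complement receptor, was the 1 Kupffer cell gene that separated upwards, with 13.7, 13.2 and 11.2 FPKM in control and 19.7, 15.7 and 15.9 FPKM in lipophagy livers (0.40, limma, adjusted p = 0.161), where 15.4% of all genes separated upwards. Slc40a1, the iron exporter ferroportin, was the 1 that separated downwards (-0.20, limma, adjusted p = 0.282), and it was named after its values were seen. Id3 had the lowest change (-0.33, limma, adjusted p = 0.255), and Timd4, at 0.125 to 0.388 FPKM, was below the limit and not tested.

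The other genes of the lipid-associated programme were 20 genes that include lipid uptake, lysosomal enzymes and lipid droplets. Their mean was lower for 13 and higher for 7, with a median of -0.14, and 6 separated, all downwards, as 10.8% of all genes did. After quantile normalization 19 of the 20 were lower in mean and the median was -0.24. Anxa5, which binds phosphatidylserine, had the lowest change, with 134, 145 and 153 FPKM in control and 94.9, 107 and 101 FPKM in lipophagy livers (-0.51, limma, adjusted p = 0.103). With a quality weight for each liver it was called (limma, adjusted p = 0.0462). Cd68, the lysosomal glycoprotein of macrophages, measured 32.4, 35.1 and 43.0 FPKM in control and 24.4, 30.1 and 29.3 FPKM in lipophagy livers, without overlap (-0.38, limma, adjusted p = 0.186). Ctsz, cathepsin Z, had the highest change (0.12, limma, adjusted p = 0.521), which turned to -0.05 after quantile normalization. Hepatocytes express many of these genes too. Of the 20 partners and relatives of the markers 19 were tested, with 11 lower and 8 higher in mean (median -0.06), 6 separated downwards and 1 upwards, where 10.8% and 15.4% of all genes did. They ran from Timp1 (-0.43, limma, adjusted p = 0.197, or -0.25 without lipophagy liver 1) to Itgb1 (0.09, limma, adjusted p = 0.474, or -0.03 after quantile normalization). After quantile normalization 16 of the 19 were lower in mean, with a median of -0.17.

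**Figure D5:**
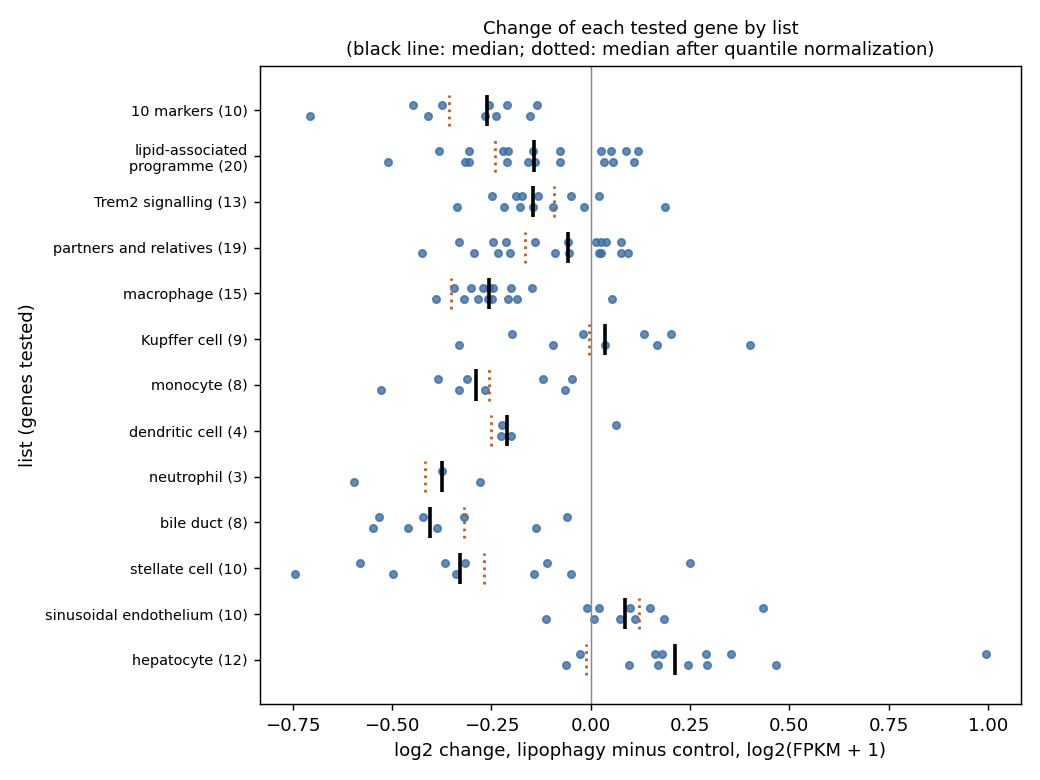
Log2 change (lipophagy minus control, log2(FPKM + 1)) of each tested gene, by list, with the number tested in brackets; black lines are medians and dotted lines the medians after quantile normalization. The 10 markers lie to the left of 0, as do all tested monocyte, neutrophil and bile duct genes, 14 of 15 macrophage genes and 9 of 10 stellate cell genes, the Kupffer cell genes lie on both sides, and the hepatocyte median moves from 0.21 to -0.01 after quantile normalization.

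Genes of other liver cells also differed in mean, with 0 called in each list, and their part in the results was not tested. Among neutrophil genes 3 of 9 were tested, all lower in mean (summed level 19.2 to 33.4 FPKM in control and 16.9 to 20.0 FPKM in lipophagy livers), from S100a9 (-0.60, limma, adjusted p = 0.165) to Csf3r (-0.28, limma, adjusted p = 0.252), which were -0.37 and -0.16 without control liver 2. Among dendritic cell genes 4 of 10 were tested, with 3 lower in mean (summed level 207 to 237 and 171 to 220 FPKM), from Cd74 (-0.23, limma, adjusted p = 0.342) to Clec9a (0.06, limma, adjusted p = 0.812). Flt3 and Zbtb46, which define dendritic cells, stayed at or below 0.532 FPKM in every liver and were not tested. Stellate cell genes had 9 of 10 lower in mean and 6 separated downwards, where 10.8% of all genes did (summed level 176 to 186 and 139 to 168 FPKM), from Col1a1 (-0.75, limma, adjusted p = 0.103) to Lrat (0.25, limma, adjusted p = 0.351, or 0.135 without lipophagy liver 1 and 0.377 without control liver 2). Sinusoidal endothelial genes had 8 of 10 higher in mean (summed level 41.9 to 52.2 and 46.8 to 69.7 FPKM), from Pecam1 (-0.11, limma, adjusted p = 0.570) to Clec4g (0.43, limma, adjusted p = 0.280). Without lipophagy liver 1 these were -0.18 and 0.18, and Pecam1 was -0.18 without control liver 3, -0.06 without control liver 2 and -0.03 without lipophagy liver 2. Hepatocyte genes had 10 of 12 higher in mean, 6 separated upwards, where 15.4% of all genes did, and 5 with an unadjusted p below 0.05 in that direction, where 11.5% of all genes had one. Their change ran from Apoa1 (-0.06, limma, adjusted p = 0.837) to Tat (0.995, limma, adjusted p = 0.211), with Alb at 0.47 (limma, adjusted p = 0.204). Their median of 0.21 became -0.01 after quantile normalization, with 6 of the 12 lower, whereas the median of the markers became -0.36 and all 10 stayed lower in mean.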

How the data were processed

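Poly(A) RNA of 6 livers (3 control, 3 lipophagy) was sequenced from stranded libraries in 100 bp paired-end mode. The authors deposited FPKM for each gene and liver. The submitters' processing notes name TopHat2 2.0.13, Bowtie2 2.2.3, SAMtools 0.1.19, Cufflinks 2.2.1 and mm10, and the annotation is not given in the sources used here. Replicates were separate samples in the labels, which do not say that they were separate animals, so p-values measure the spread between these samples.

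Log2(FPKM + 1) of the 11493 genes averaging 0.5 FPKM or more was tested with limma 3.58.1 in R 4.3.3 (intensity trend, no covariates, two-sided, Benjamini-Hochberg over all genes, threshold 0.05). Single values were compared with exact permutation tests in Python 3.11.15 (pandas 2.3.3, numpy 2.4.6, scipy 1.17.1, matplotlib 3.10.9). Depth was estimated from low FPKM values and GENCODE transcript lengths less 150 bases. Between 72.4% and 78.6% of low values lay within 0.1 of a whole fragment, too few for a count test, and fragment numbers cover counting error only. On simulated data for the comparison of 3 against 3 (11493 genes, 200 changed by 1 on the log2 scale), 89.5% of changed genes were called, 7 of 186 calls were false, and 0 were called with no change. The changed genes were drawn only from those above a level that Ly6c2 did not reach. Each marker moved by less than 1, so the share called does not cover changes of their size.

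The markers, the lists and the rule for named genes were chosen with earlier results of these data known. The rule took all 10 markers, the genes with the highest and lowest change of each list, stated partners and cell type genes, and the 5 genes nearest Trem2. Other genes and the pairs plotted were chosen after their values were seen. Alternatives were pseudocounts of 0.5 and 0.1, other filters, quantile normalization, median scaling, limma without trend or with liver weights, the replicate block and each liver left out. Ly6g was not analysed here.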

Additional observations from a re-analysis of the deposited data

How the results depend on the processing

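None of the 10 markers was called by limma in any of the 15 alternatives, the lowest adjusted p being 0.0744 (Ly6c2), and each kept its negative direction in all 15. Calls over the whole table numbered 3, and 39 with liver weights, 1 without a filter, 4 after quantile normalization, 43 with the replicate block and 1 to 11 with a liver left out, and the causes were not tested. The same-numbered livers deviated together with r = 0.25, 0.23 and -0.06 for numbers 1, 2 and 3, and control 3 correlated best with lipophagy 2 (0.25), so the numbers were not read as pairs. Under the block Col1a1 was also called (limma, adjusted p = 0.0445). Separated markers numbered 1, and 3 after quantile normalization (Trem2, Tyrobp and Ly6c2, where 10.2% of all genes separated downwards) and 1 to 8 with a liver left out. Leaving out control liver 1 gave 8 (16.4% of all genes), lipophagy liver 2 gave 3 (15.8%), and control liver 2 or lipophagy liver 3 gave 2 (14.8% and 18.5%). The median of the markers against the macrophage genes was -0.021, and 0.035 and 0.014 with control liver 3 or lipophagy liver 1 left out. Signs turned after quantile normalization for Apoe (-0.028), Cd82 (-0.11), Ctsz (-0.045), Itgb1 (-0.032) and Sox9 (0.023). With a liver left out, signs turned within the ranges Adgre1 (-0.031 to 0.15), Apoa1 (-0.18 to 0.044), Cd81 (-0.10 to 0.022), Cd82 (-0.027 to 0.044), Clec9a (-0.058 to 0.14), Hcst (-0.28 to 0.074), Ifitm3 (-0.12 to 0.021), Ly6c1 (-0.043 to 0.074) and Sox9 (-0.12 to 0.042). Of the 42 named genes of other lists, 25 moved by over 1.5 times with a liver left out, these 9 among them and Apoe (0.082 to 0.26), Itgav (-0.20 to -0.069), Lyz1 (-0.43 to -0.087), Lgals1 (-0.20 to -0.0033), Clec4f (0.0091 to 0.26), Krt19 (-0.82 to -0.38), Krt7 (-0.70 to -0.32), Epcam (-0.84 to -0.32), Ctsz (0.032 to 0.18), Timp1 (-0.52 to -0.25), Cd74 (-0.35 to -0.15), S100a9 (-0.72 to -0.37), Csf3r (-0.39 to -0.16), Lrat (0.13 to 0.38), Pecam1 (-0.18 to -0.028) and Clec4g (0.18 to 0.58). FPKM keep no exact depth, and Ly6c2 at an estimated 11.0 to 39.3 fragments rests on the fewest.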
